A study of Rattus norvegicus with 12 samples.

Results

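Connexins are the proteins of gap junctions, the channels through which current passes from one heart muscle cell to the next. The genes described here are 5 connexins expressed in heart and vessel, Gja1, Gja3, Gja4, Gja5 and Gjc1, chosen by symbol from the 21239 genes with counts in RNA-seq of the rat left atrium, and all 5 were found in the table. The series held 12 libraries in 4 groups of 3: WKY (normotensive Wistar-Kyoto rats given saline, 7.5 ml/kg/day), SHR (spontaneously hypertensive rats, SHRs, given the same saline), ARB (SHRs given valsartan, an angiotensin receptor blocker, 30 mg/kg/day) and ARNI (SHRs given sacubitril/valsartan, which adds a neprilysin inhibitor, 60 mg/kg/day). All rats were males bought at 14 weeks of age and were dosed for 4 weeks. In all 4 groups the labelled tissue was the left atrium, and each library is 1 rat as far as the study's methods state.

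The labels of 6 libraries contradict themselves: in each WKY or SHR title, the words for the strain name the opposite strain to the library name. Libraries were grouped by library name, so the direction of every SHR and WKY comparison rests on those names. The ARB and ARNI labels name the Wistar-Kyoto strain beside the hypertensive phenotype. Mettl24, chosen after its values were seen, stood at 3.02 to 3.58 CPM (reads of the gene scaled to a common total of 1e+06 reads per library) in the libraries named WKY and at 0 to 0.0688 CPM in the other 9. Total counts were 11252361 to 15823525 per library, so that a gene with no read in a library could be present there at up to 0.190 to 0.267 CPM (3 reads).

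The tissue label was checked against markers of atrial and ventricular muscle. Myl7, the atrial regulatory light chain, stood at only 0.889 to 15.9 CPM in the WKY libraries and at 9.67 CPM in ARNI replicate 2, against 4478 to 11547 CPM in the other 8 libraries. Sln, the atrial inhibitor of the calcium pump, was at 0.261 to 0.444 CPM in WKY. Myl2, the ventricular light chain, was at 3489 to 3776 CPM in WKY, at 4161 CPM in ARNI replicate 2, at 2298 CPM in SHR replicate 2 and at 2573 CPM in ARB replicate 3, and at no more than 24.2 CPM elsewhere. Thus the WKY libraries and ARNI replicate 2 nearly lacked the defining atrial markers and held ventricular ones, and SHR replicate 2 and ARB replicate 3 held both. Strain and this difference in muscle markers cannot be told apart between the WKY and SHR groups.

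As background, Gja1 encodes connexin 43 (Cx43), the main gap junction protein of working atrial and ventricular muscle, which is also found in fibroblasts, smooth muscle and endothelium. Gja5 encodes connexin 40 (Cx40), which in the heart is typical of atrial muscle, the fast conduction system and arterial endothelium. Gjc1 encodes connexin 45 (Cx45), best known from the nodes and the conduction system. Gja4 encodes connexin 37 (Cx37) of arterial endothelium, and Gja3 encodes connexin 46 (Cx46), best known from the fibre cells of the lens. Reduced or patchy connexins 43 and 40 are known to slow conduction in the atrium and to favour atrial fibrillation.

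The upstream sequences of Gja1 and Gja5 are shown because these connexins couple atrial muscle cells and were, respectively, the steadiest and the most variable of the 5 in these libraries. Each sequence is the 250 bases before the start of the gene in RefSeq, build GRCr8, on the plus strand of chr20:36302314-36302563 for Gja1 and of chr2:187290977-187291226 for Gja5. Capitals mark the matches to the searched motifs.
Gja1: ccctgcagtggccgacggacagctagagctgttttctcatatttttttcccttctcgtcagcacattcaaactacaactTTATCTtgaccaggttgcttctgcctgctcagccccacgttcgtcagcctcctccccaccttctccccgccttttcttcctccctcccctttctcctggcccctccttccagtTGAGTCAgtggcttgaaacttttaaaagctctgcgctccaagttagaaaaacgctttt
Gja5: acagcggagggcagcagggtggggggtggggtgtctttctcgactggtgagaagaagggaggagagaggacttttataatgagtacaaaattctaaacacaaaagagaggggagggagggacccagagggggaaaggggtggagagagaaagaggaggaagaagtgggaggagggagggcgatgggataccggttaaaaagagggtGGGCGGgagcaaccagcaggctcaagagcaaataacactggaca
Both strands of 300-base windows, the 250 bases before and the 50 bases after the start, were searched for 7 motifs in the 4 connexins with an entry, Gja1, Gja3, Gja4 and Gja5. The Gja1 window held an AP-1 motif (TGANTCA) starting 58 bases before the start and a GATA motif (AGATAA, on the minus strand) starting 171 bases before it, and AP-1 motifs occurred in 7.33% and GATA motifs in 11.6% of 33469 such windows. The Gja5 window held GC boxes (GGGCGG) starting 44 bases before the start and at base 38 after it, the latter beyond the printed stretch. The windows of Gja3 and Gja4 also held a GC box, which 33.1% of all windows had, and that of Gja1 held none. No window of the 4 held the T-box motif (AGGTGTGA, in 1.10% of all windows), the NKX2-5 motif (TNAAGTG, 11.5%), the Iroquois motif (ACANNTGT, 7.89%) or the FOXO motif (GTAAACA, 3.78%). These are matches of letters only.

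The levels of the 5 connexins were compared first library by library. CPM is not corrected for transcript length, so levels were compared between libraries and not between genes. Gja1, the principal connexin of heart muscle, stood at 748, 813 and 670 CPM in WKY replicates 1 to 3, at 829.9, 839 and 994 CPM in SHR, at 852, 792 and 622 CPM in ARB and at 946, 660.3 and 589 CPM in ARNI. All 3 SHR libraries were above all 3 WKY libraries, whereas the treated groups overlapped with both. On library sizes scaled by TMM, however, the SHR range of 798 to 896 CPM overlapped with the WKY range of 715 to 850.5 CPM. The group means were 744 ± 71.9 (SD, n = 3) CPM in WKY, 888 ± 92.4 in SHR, 755 ± 120 in ARB and 732 ± 189 in ARNI, and only SHR stood apart from its neighbour in the order of means, ARB, by more than the larger of their SDs. Of the 5 genes, Gja1 varied least, with a coefficient of variation of 16.2% over the 12 libraries and 1.69-fold between the highest and the lowest. Its expected counts were not whole in any of the 12 libraries, so part of its reads was shared with similar sequence and its level is uncertain to that extent.

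Gjc1, the connexin of nodal and conduction tissue, was lowest in WKY. It stood at 13.04, 9.57 and 9.24 CPM in the WKY libraries, at 25.8, 16.8 and 28.0 CPM in SHR, at 27.8, 26.6 and 22.4 CPM in ARB and at 26.0, 11.5 and 17.4 CPM in ARNI. The SHR and ARB libraries were all above the WKY libraries, and ARNI replicate 2 lay within the WKY range. The group means were 10.6 ± 2.11 (SD, n = 3) CPM in WKY, 18.3 ± 7.32 in ARNI, 23.5 ± 5.93 in SHR and 25.6 ± 2.81 in ARB, an order in which neighbours differed by less than the larger SD except WKY and ARNI, whose libraries overlapped. The lowest 4 of the 12 libraries were the 3 WKY libraries and ARNI replicate 2, which are the 4 libraries nearly without Myl7, and SHR replicate 2, with both kinds of marker, came next. The part of the muscle markers in the level of Gjc1 was not tested. In bulk RNA, fewer cells of a type and less RNA per cell cannot be told apart.

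Gja5, the connexin of atrial muscle, fast conduction tissue and arterial endothelium, varied most. It was steady in WKY, at 14.8, 15.5 and 14.4 CPM. In SHR it was at 15.8, 23.7 and 7.79 CPM, in ARB at 26.1, 36.6 and 14.4 CPM and in ARNI at 17.1, 9.28 and 27.8 CPM. No group stood apart from another, and the highest library, ARB replicate 2, was 4.70-fold above the lowest, SHR replicate 3. Within ARB, the 95% Poisson intervals of replicates 2 and 3 were 33.5 to 39.8 CPM and 12.4 to 16.7 CPM, and within SHR those of replicates 2 and 3 were 21.1 to 26.5 CPM and 6.43 to 9.35 CPM, whereas the intervals of the 3 WKY libraries overlapped. Such intervals cover counting error only. The 2 highest libraries of Gja5, ARB replicate 2 and ARNI replicate 3, also had the highest summed level of 7 adipocyte markers, 765 and 780.5 CPM, against 86.0 to 383 CPM in the other 10, and all 7 markers had reads in both, as in WKY replicate 3. Adipoq, the fat cell hormone, was at 192 and 61.7 CPM there and at no more than 4.71 CPM elsewhere. Fabp4, at 336 and 367 CPM there, made up most of the sum in the other 10 libraries, at 83.3 to 359 CPM. Other libraries ran the opposite way. ARB replicate 1, with Gja5 at 26.1 CPM, had an adipocyte sum of 94.9 CPM. WKY replicate 3 and ARB replicate 3, with sums of 383 and 375 CPM, both had Gja5 at 14.4 CPM. The part of these adipocyte markers in the level of Gja5 was not tested. The group means were 14.9 ± 0.544 (SD, n = 3) CPM in WKY, 15.7 ± 7.93 in SHR, 18.1 ± 9.31 in ARNI and 25.7 ± 11.1 in ARB, and neighbours in this order differed by less than the larger SD. Unlike Gjc1, Gja5 was not fully separated by the atrial marker. The libraries with almost no Myl7, WKY and ARNI replicate 2, lay within the range of the 8 libraries that held it. Of those 8, however, only SHR replicate 3 and ARB replicate 3, at 7.79 and 14.4 CPM, lay below the highest WKY library.

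Gja4, the arterial endothelial connexin, differed little between groups. Its levels were 8.01, 7.13 and 10.6 CPM in WKY, 7.62, 10.2 and 9.75 CPM in SHR, 8.33, 6.95 and 13.2 CPM in ARB and 5.69, 9.35 and 9.63 CPM in ARNI. All groups overlapped, and the means of 8.57 ± 1.79 (SD, n = 3) in WKY, 9.21 ± 1.4 in SHR, 9.51 ± 3.31 in ARB and 8.23 ± 2.2 CPM in ARNI lay within 1 SD of each other. With 82 to 167 reads per library, Gja4 had the least depth of the 5, and its lowest library, ARNI replicate 1, had a Poisson interval of 4.57 to 6.99 CPM.

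Gja3, the lens connexin, was detected in every library with 665 to 1112 reads. It stood at 82.3, 73.8 and 59.1 CPM in WKY, at 46.3, 71.0 and 75.3 CPM in SHR, at 56.9, 60.05 and 67.8 CPM in ARB and at 47.6, 83.7 and 48.5 CPM in ARNI. The groups overlapped, and the highest library was ARNI replicate 2, which nearly lacked Myl7, followed by WKY replicate 1. The means were 71.7 ± 11.7 (SD, n = 3) CPM in WKY, 64.2 ± 15.7 in SHR, 61.6 ± 5.58 in ARB and 59.9 ± 20.6 in ARNI, with all neighbours within 1 SD.

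**Figure D1:**
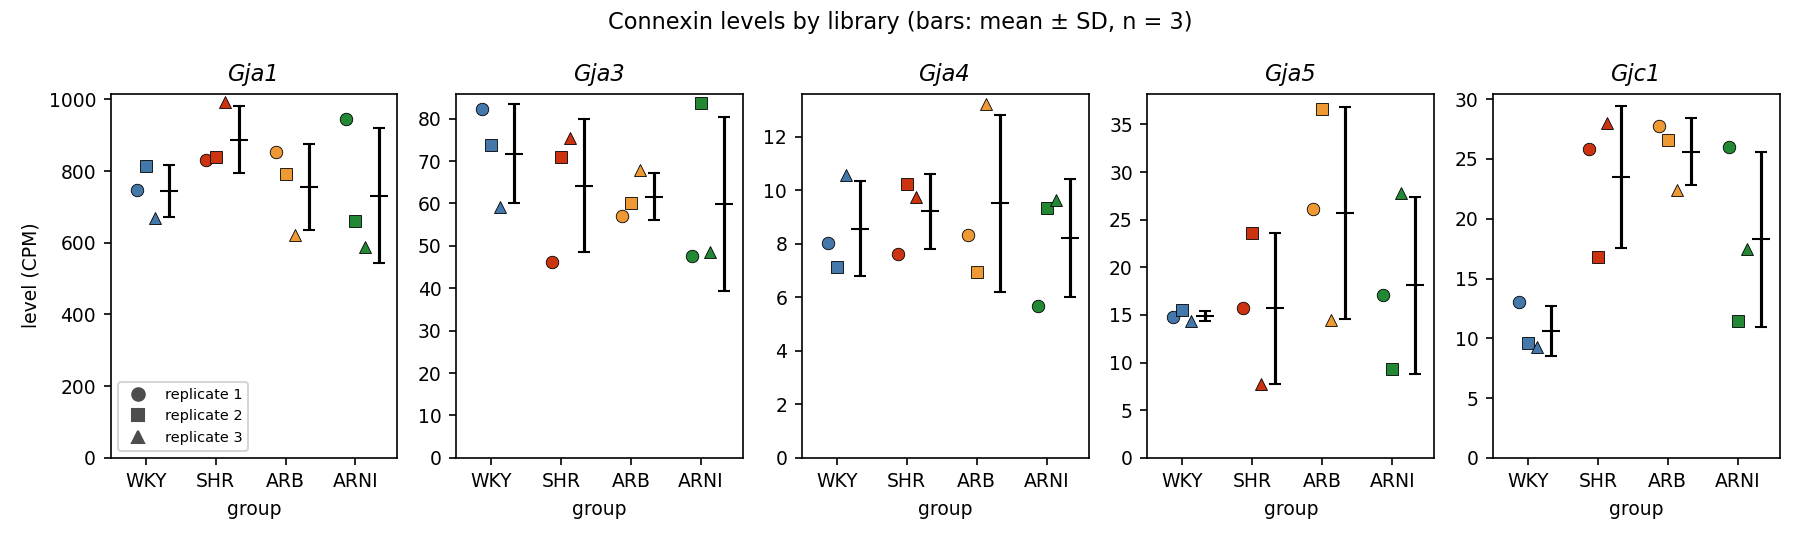
Level in CPM of each of the 5 connexins (1 panel each, axes from 0) in the 12 libraries by group; symbols give the replicate number and black bars the group mean ± SD (n = 3). Gjc1 is at 9.24 to 13.04 CPM in WKY and at 16.8 to 28.0 CPM in SHR, whereas Gja5 spans 7.79 to 36.6 CPM with overlapping groups.

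Whether the hypertensive strain differed from the normotensive one was addressed by comparing the SHR group with the WKY group. Genes whose log2 fold change was 1 or more in size, with an adjusted p not above 0.05, were called; the quasi-likelihood test of edgeR was run on 13794 genes, and p-values were adjusted over all of them by the Benjamini-Hochberg method. All 5 connexins passed the filter on low counts, and 1 of 5 was called, against 8.89% of all genes tested, or 5.54% called higher. Over all genes, 764 were called higher and 462 lower, and without scaling 985 and 363. This was Gjc1, with a log2 fold change of 1.003 ± 0.209 (SE), a 95% interval of 0.51 to 1.5 and an adjusted p of 0.0233 (edgeR). By the adjusted p alone, 1 of 5 passed, against 20.6% of all genes. The call stood at the fold threshold itself and was lost in 5 of 6 fits that left out a library: without WKY replicate 1, 2 or 3 the adjusted p was 0.0545, 0.0959 and 0.0945, without SHR replicate 1 it was 0.0764, and without SHR replicate 3 the log2 fold change fell to 0.91. It was also lost, by the fold alone, with DESeq2, RLE scaling and the replicate block, at 0.9917, 0.9895 and 0.9954. Without SHR replicate 2, the library holding both kinds of muscle marker, it was 1.17 with an adjusted p of 0.00247.

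For the other 4 connexins the test was not passed, and the intervals bound the difference. The log2 fold change of Gja1 was 0.12 ± 0.129 (SE) with a 95% interval of -0.19 to 0.42 and an adjusted p of 0.525 (edgeR), although its CPM did not overlap between the groups. Groups that do not overlap in CPM were found for 2 of 5 connexins, Gja1 and Gjc1, against 49.5% of all genes tested. Gja3 had a log2 fold change of -0.30 with an interval of -0.79 to 0.20, and Gja4 one of -0.03 with an interval of -0.55 to 0.48. Gja5 had a log2 fold change of -0.03 with an interval of -0.98 to 0.91, so that nearly 2-fold differences either way were within its error. The median log2 fold change of the 5 was -0.03, beside 0.015 over all genes tested. Without scaling beyond total counts, the median of all genes was 0.15, and Gja4 and Gja5 then stood at 0.10 and 0.08, that is, below that median.

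**Figure D2:**
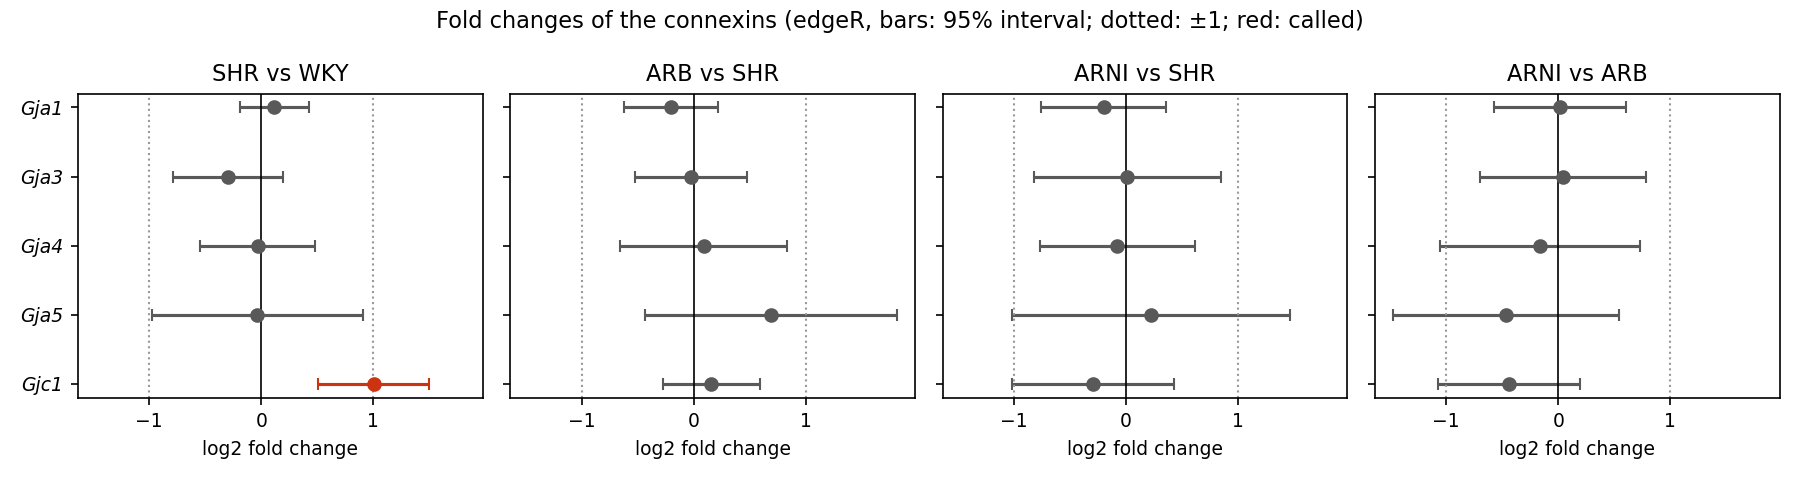
Log2 fold change of each connexin in the 4 comparisons (edgeR, 6 libraries each); points are estimates, bars 95% intervals, dotted lines ±1, and red marks a call. Only Gjc1 in SHR against WKY, at 1.003, is called, and the intervals of Gja5 are the widest in each panel.

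The effect of the drugs in SHRs was addressed by comparing ARB with SHR, ARNI with SHR, and ARNI with ARB. These comparisons share libraries, so their values are not independent of each other. No connexin was called in any of them by edgeR, none had an unadjusted p under 0.05, the groups overlapped for all 5, and none was called by DESeq2. Over all genes, 0% were called in ARB against SHR, 0% in ARNI against SHR and 0% in ARNI against ARB. Unadjusted p-values under 0.05 were held by 1.61%, 1.63% and 3.86% of all genes, and groups did not overlap for 5.39%, 6.56% and 10.5%, in the same order. Over all genes, DESeq2 called 3, 7 and 18.

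With valsartan, the largest difference was that of Gja5, whose log2 fold change of ARB over SHR was 0.69 ± 0.471 (SE), with a 95% interval of -0.43 to 1.81 and an adjusted p of 1 (edgeR). Leaving out SHR replicate 2 and ARB replicate 3, which hold ventricular markers, raised it to 1.42, again with an adjusted p of 1. Gjc1 stood at 0.16 with an interval of -0.27 to 0.59, Gja1 at -0.20 with -0.62 to 0.22, Gja4 at 0.09 with -0.65 to 0.84 and Gja3 at -0.02 with -0.52 to 0.48. With sacubitril/valsartan, Gjc1 had a log2 fold change over SHR of -0.29 with an interval of -1.01 to 0.43, and Gja5 one of 0.22 with -1.02 to 1.46. Without SHR replicate 2 and ARNI replicate 2, the latter nearly lacking atrial markers, that of Gja5 was 0.96. Gja1 stood at -0.20 with -0.76 to 0.36, Gja4 at -0.08 with -0.77 to 0.62 and Gja3 at 0.01 with -0.82 to 0.85, and the adjusted p was 0.999 for all 5 (edgeR).

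Between the drugs, Gja5 and Gjc1 stood lower in ARNI than in ARB by estimates within their error. Their log2 fold changes were -0.46 with a 95% interval of -1.47 to 0.54 and -0.44 with -1.08 to 0.19, both with an adjusted p of 0.993 (edgeR). Those of Gja1, Gja3 and Gja4 were 0.02, 0.04 and -0.16, and the widest of their intervals was that of Gja4, from -1.05 to 0.73. Changes of 2-fold in either direction thus remained within the interval of Gja5 in ARNI against SHR, and increases of that size within that of Gja5 in ARB against SHR. Decreases of that size remained within the intervals of Gjc1 in ARNI against SHR and of Gja4, Gja5 and Gjc1 in ARNI against ARB.

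The balance between connexins was also read within each library, as reads of the other 4 connexins per 1000 reads of Gja1, a ratio that does not depend on the scaling of libraries. Gjc1 reads per 1000 Gja1 reads were 11.8 to 17.4 in WKY, 20 to 31.1 in SHR, 32.6 to 36.1 in ARB and 17.4 to 29.6 in ARNI. The ARB libraries were thus above all others, and the WKY libraries were below those of SHR and ARB, with ARNI replicate 2 at the top of the WKY range. Gja5 reads per 1000 Gja1 reads were 19.0 to 21.5 in WKY, 7.84 to 28.2 in SHR, 23.2 to 46.2 in ARB and 14 to 47.2 in ARNI. Here only ARB and WKY did not overlap. Gja3 reads per 1000 Gja1 reads went the other way between the strains, at 88.3 to 110 in WKY and 55.8 to 84.6 in SHR, which did not overlap, with 66.8 to 109 in ARB and 50.3 to 127 in ARNI. Gja4 reads per 1000 Gja1 reads were 8.77 to 15.8 in WKY, 9.19 to 12.2 in SHR, 8.77 to 21.3 in ARB and 6.01 to 16.4 in ARNI, and all groups overlapped. The ratios are given as a description, without a test and without the share of other genes whose ratios do not overlap. By CPM, the groups did not overlap for 49.5% of all genes in SHR against WKY, for 5.39% in ARB against SHR and for 10.5% in ARNI against ARB. The CPM of Gjc1 itself overlapped between ARB, at 22.4 to 27.8, and both SHR and ARNI. The highest ratio of Gjc1, 36.1 in ARB replicate 3, came with the lowest Gjc1 of ARB, 22.4 CPM, and with Gja1 at 622 CPM. The CPM of Gja1, the divisor, was itself higher in all SHR than in all WKY libraries.

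**Figure D3:**
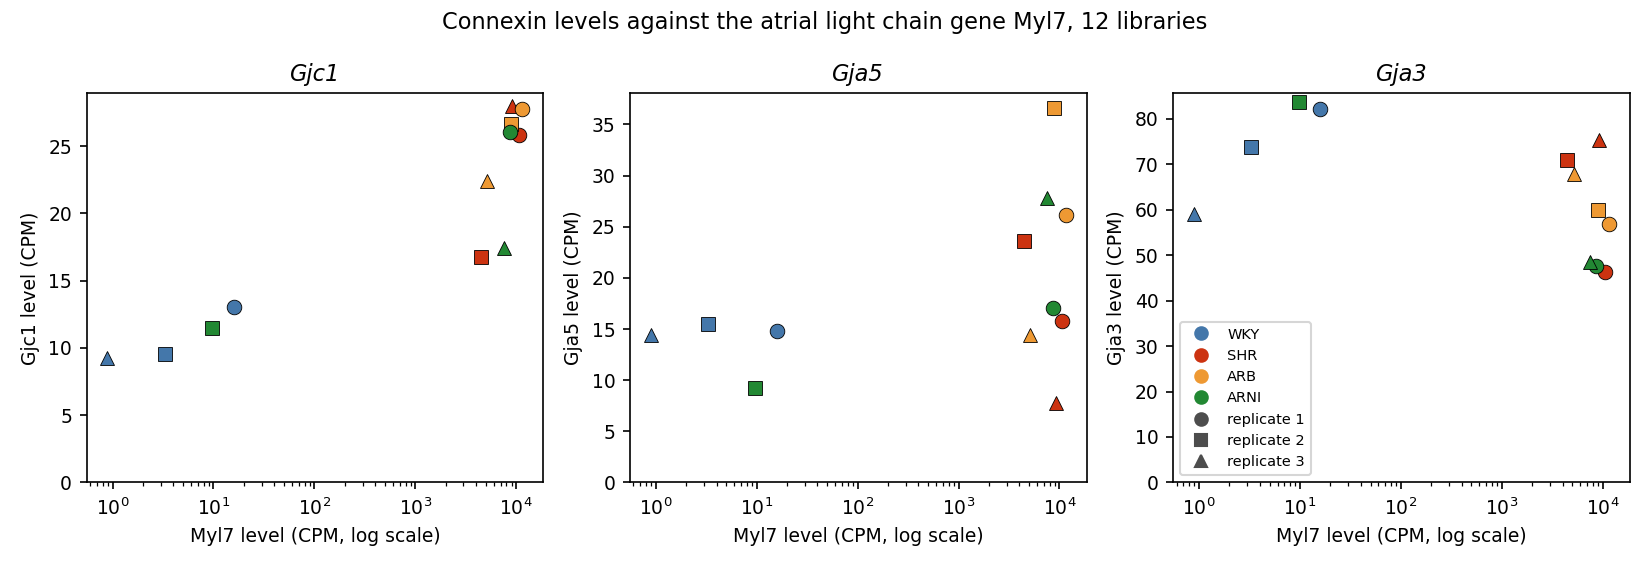
Levels of Gjc1, Gja5 and Gja3 in CPM against the level of the atrial light chain gene Myl7 in CPM (log scale), 1 point per library; colours give the group and symbols the replicate. The 4 libraries with Myl7 at or below 15.9 CPM have Gjc1 at 9.24 to 13.04 CPM, and those with Myl7 from 4478 CPM have it at 16.8 to 28.0 CPM, while Gja5 spreads from 7.79 to 36.6 CPM among the latter.

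Genes whose levels followed each connexin most closely over the 12 libraries were found by Pearson correlation of log2 CPM among 14451 other genes, as a description of libraries that share preparation and fall into sets with and without Myl7. Gjc1 had the closest followers, Mageh1 (r = 0.982), Rusf1 (0.979), Fam110b (0.977), Ccpg1os (0.976) and Pcdhga2 (0.976). For Gja3 they were Hlcs (0.951), Aqp6 (0.932), Mpv17l (0.930), Ddit4l (0.928) and Thoc5 (0.923). For Gja1 they were Hdac9 (0.925), Zkscan8 (0.910), Prdm11 (0.909), Kctd3 (0.892) and Sft2d2 (0.890). Gja5 was followed by Eif4g2 (0.926), Cebpg (0.876), LOC102556288 (0.875), S1pr3 (0.849) and Zfp536 (0.824), and Gja4 by Lztr1 (0.906), Gng11 (0.891), Hspbp1 (0.886), Lcn2 (0.880) and Dusp12 (0.868). No gene was named for more than 1 connexin, and with so many genes and 12 libraries, high values are found for any gene.

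The wider family was examined in a list of 18 other connexins and pannexins, the latter being channel proteins related in shape to connexins. Only 4 of the 18 had enough reads to test. Between SHR and WKY, 3 of the 4 rose and none fell, beside 8.89% of all genes called and 5.54% called higher. One of them, Gjd3, was so low in WKY that it passed the filter on low counts only through the SHR libraries, so the count over the 4 supports nothing about the family. Gjd3, a connexin reported from conduction tissue in the mouse, was at 0.355 to 0.522 CPM in WKY and 2.41 to 3.39 CPM in SHR, a log2 difference of 2.45 ± 0.326 (SE) with an adjusted p of 0.0074 (edgeR). Panx2 rose by 2.08 ± 0.332 with an adjusted p of 0.0122, from 9.60 to 20 CPM in WKY to 44.1 to 87.3 CPM in SHR. Panx1, the widely expressed pannexin, rose by 1.12 ± 0.294 with an adjusted p of 0.0415. In ARNI replicate 2, Gjd3, Panx1 and Panx2 were at 0.472, 1.02 and 10.7 CPM, within or below the range of WKY, as Gjc1 was.

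**Figure D4:**
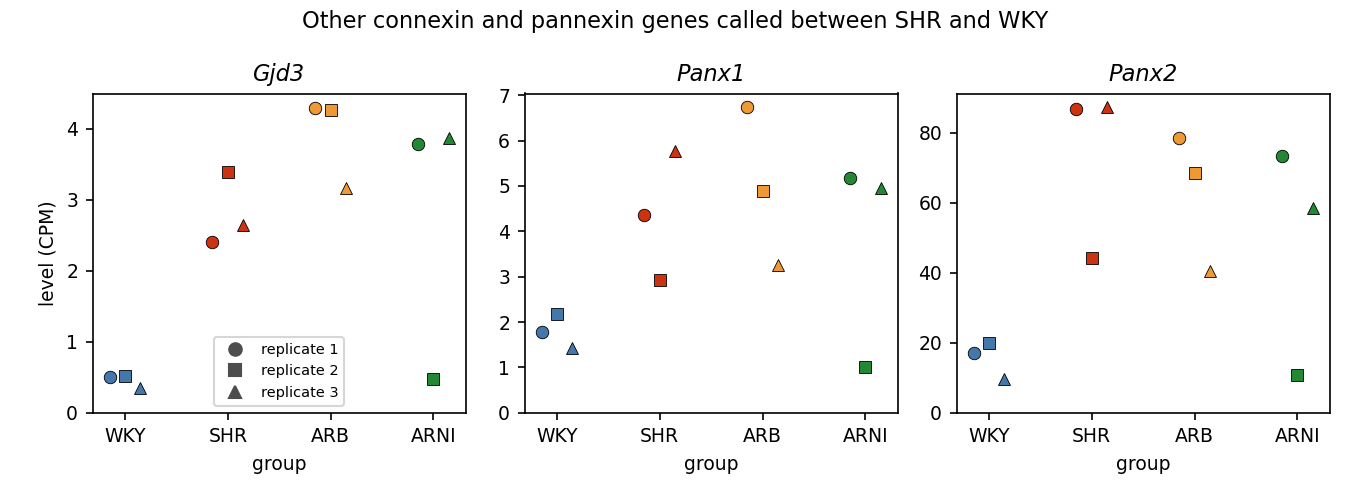
Level in CPM of Gjd3, Panx1 and Panx2, the 3 other connexin and pannexin genes called between SHR and WKY, by group (axes from 0); symbols give the replicate. All 3 are low in the 3 WKY libraries and in ARNI replicate 2, where Panx2 is at 10.7 CPM, and higher in all other libraries.

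Transcription factors known to act on cardiac connexin genes formed a list of 25, of which 24 were tested between SHR and WKY. Of these, 4 rose, 1 fell and 19 were not called, beside 8.89% of all genes called, and the median log2 fold change was 0.17. By the adjusted p alone, 8 of 24 passed, beside 20.6% of all genes. Tbx5, a T-box activator of Gja5 in atrium and conduction system, was at 31.0 to 33.4 CPM in WKY and 164 to 352 CPM in SHR, a rise of 2.88 ± 0.263 (SE) on the log2 scale with an adjusted p of 0.00316 (edgeR). Etv1, a factor of fast-conducting muscle, rose by 2.37 ± 0.359 with an adjusted p of 0.0105. Hopx, a homeodomain protein without DNA binding, rose by 2.03 ± 0.458 with an adjusted p of 0.0287, and Tbx18, a factor of sinus node development, by 1.58 ± 0.178 with an adjusted p of 0.00489. Irx5, an Iroquois factor, fell by 1.99 on the log2 scale with an adjusted p of 0.00433. Tbx5 is also in the atrial marker list, and its level in ARNI replicate 2, 33.4 CPM, equalled the highest of WKY. Gja5 itself had a log2 fold change of -0.03 in the same comparison.

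The partners of connexins at the intercalated disc, the end-to-end contact of heart muscle cells, formed a list of 25 that were all tested. Here 1 fell between SHR and WKY, none rose and 24 were not called, beside 8.89% of all genes called, and the median log2 fold change was -0.14. By the adjusted p alone 8 of 25 passed, beside 20.6% of all genes, and the groups did not overlap in CPM for 14 of 25, beside 49.5%. The one that fell was Xirp2, an actin-binding protein of the disc, from 507 to 649 CPM in WKY to 218 to 364 CPM in SHR, by 1.15 on the log2 scale with an adjusted p of 0.0214 (edgeR). Of the list of kinases, trafficking and turnover factors of connexins, 24 of 25 were tested and none was called, with a median of 0.11, and 4 of 24 passed the adjusted p alone, a share below the 20.6% of all genes. None of the genes of the 4 lists was called in ARB against SHR, ARNI against SHR or ARNI against ARB.

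Markers of the cell types that could carry these connexins were read in the same fit. Of 13 atrial muscle markers, 11 were called higher in SHR than in WKY and none lower, with a median of 2.88. Of all genes, 8.89% were called and 5.54% called higher. Kcna5 ran the other way without a call, at 7.13 to 14.1 CPM in WKY and 1.2 to 5.6 CPM in SHR. Its log2 fold change was -1.76 with an adjusted p of 0.064 (edgeR). The summed level of the list was 1947 to 2350 CPM in WKY, 33749 to 90304 in SHR, 42336 to 86404 in ARB and 1696 to 80681 in ARNI. Of 10 ventricular markers, 2 fell and none rose, namely Myh7 by 4.65 and Kcne1 by 4.25 on the log2 scale, beside the same 8.89%. Kcne1, at 0.135 to 0.473 CPM in SHR, passed the filter on low counts only through WKY. Outside replicate 2, SHR held Myl2 at no more than 0.736 CPM and Irx4 at no more than 0.0669 CPM. Both thus passed that filter only with the WKY libraries. The atrial markers Sln, Mybphl and Bmp10 passed it only through SHR. The counts of called markers, and those of direction and overlap that follow, thus include genes admitted by their own difference. None of the 10 ventricular markers had a fold change above 0, and the median was -2.04. The groups did not overlap for 8 of 10, beside 49.5% of all genes. The summed level was 52135 to 52903 CPM in WKY, 3471 to 17545 in SHR, 4008 to 17970 in ARB and 4023 to 28265 in ARNI. Conduction system markers, of which 10 were tested, had 3 that rose, beside 8.89% of all genes called. They were the calcium channel genes Cacna1g by 4.89 and Cacna1d by 4.24, and Bmp2, a growth factor of the atrioventricular canal, by 1.41. The summed level of the conduction list was 114 to 122 CPM in WKY, 532 to 889 in SHR, 391 to 950 in ARB and 92.8 to 977 in ARNI. Most of that sum was Cacna1g, at 330 to 690 CPM in SHR, and the list did not move as one: Irx3, an Iroquois factor of the fast conduction system chosen after its values were seen, was at 25.2 to 30.4 CPM in WKY and 0.338 to 11.5 CPM in SHR, with an adjusted p of 0.0964 (edgeR). Gjc1 stood lowest in the 4 libraries where the summed atrial markers were also lowest.

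The vascular lists moved less, and 8.89% of all genes tested were called in the same comparison. Of 12 endothelial markers none was called, with summed levels of 1772 to 1872 CPM in WKY and 1595 to 2676 CPM in SHR. Of 10 arterial endothelial markers other than Gja4 and Gja5, only Notch4 was called, lower by 1.30 on the log2 scale in SHR, with a median of -0.67 for the list and sums of 277 to 356 CPM in WKY and 165 to 220 CPM in SHR. Gja4, which is expressed in the same cells, had a log2 fold change of -0.03. Of 12 smooth muscle and pericyte markers, Myh11 fell by 1.13 and Kcnj8 by 1.04, with a median of -0.65 for the list. Its sums did not overlap, at 3875 to 4113 CPM in WKY and 2356 to 3505 CPM in SHR. Most of that sum was Des, at 3147 to 3283 CPM in WKY and 1740 to 2810 CPM in SHR. None of 12 fibroblast markers and none of 2 adipocyte markers tested was called, and the fibroblast sums, 4001 to 4668 CPM in WKY and 2438 to 8792 CPM in SHR, overlapped. The part of these cell types in the levels of the connexins was not tested.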

How the data were processed

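RNA from the left atrium was sequenced as single-end reads on a BGISEQ-500 after oligo(dT) enrichment, in 12 libraries. The authors filtered reads with SOAPnuke, used HISAT2 (2.0.4), Bowtie2 (2.2.5) and RSEM, and deposited expected counts per gene, which are estimated counts without normalization; the submitters' processing notes name Rnor_6.0. Also deposited, and not used, were the authors' DESeq2 comparison of SHR with WKY as log2 fold changes and p-values. Of 37246 genes listed, 21239 had counts, and 91.7% of their identifiers were found in the GRCr8 gene table used for names.

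Expected counts were rounded, filtered with filterByExpr, scaled by TMM and tested in edgeR (4.0.16, in R 4.3.3) by quasi-likelihood F tests on the 6 libraries of each pair, with Benjamini-Hochberg adjustment over all genes. CPM used total counts, and log2 CPM a prior count of 1. The alternatives were DESeq2 (1.42.0), other scaling, no filter, 1 fit of all libraries, a replicate block, and leaving out libraries. The steps were tested on simulated data. Genes named were the 5 members, the 5 genes most correlated with each, called genes of the lists (at most 6 per list), Myl7, Sln, Nppa, Myl2 and Irx4, and any others were chosen after their values were seen. The members and lists were chosen with earlier results of these data known. Values of some genes of the list of other connexins and pannexins are not reported here. P-values measure the spread between these libraries, and counting intervals and limits cover counting error only.

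Groups shared replicate numbers. The correlation of the deviations of same-numbered libraries was above 0.1 for every pair only in ARNI against SHR (0.509, 0.464 and 0.185). The labels do not state any pairing. SHR replicate 2 and ARNI replicate 2 both held ventricular markers, with Myl2 at 2298 and 4161 CPM, and whether these correlations reflect pairing was not tested. In ARNI against SHR, 6 of 6 libraries correlated best with their own number. The reported values come from the fit without a block, and the block changed no connexin call in ARNI against SHR. It lowered the SE there from 0.297 to 0.173 for Gjc1 and from 0.344 to 0.207 for Gja3, and raised it from 0.51 to 0.599 for Gja5. The intervals given for that comparison thus depend on leaving the block out.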

Additional observations from a re-analysis of the deposited data

How the results depend on the processing

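The call of Gjc1 between SHR and WKY held in 4 of 12 different fits, and its adjusted p passed in 8 of 12, with log2 fold changes from 0.91 to 1.17 and adjusted p from 0.00126 to 0.0959. The log2 fold change was 0.99 with DESeq2 (adjusted p 0.00126), 0.99 with RLE scaling (0.0248) and 0.9954 with the replicate block (adjusted p 0.0437), each just under the fold threshold, so that 0 connexins were called under these 3 settings. Leaving out 1 library gave 0 to 1 called connexins and a log2 fold change of Gjc1 of 0.91 to 1.17, where fewer libraries were tested. In the treated comparisons no alternative called a connexin.

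Differences near 0 changed sign under some settings, none past the threshold; the cause was not tested. Without scaling, the log2 fold changes were 0.10 for Gja4 and 0.076 for Gja5 in SHR against WKY, -0.10 for Gja3 in ARNI against SHR, and -0.045 for Gja1 and -0.039 for Gja3 in ARNI against ARB. With the replicate block, Gja3 stood at -0.038 in ARNI against SHR, and Gja1 at -0.0060 and Gja3 at -0.033 in ARNI against ARB. Without SHR replicate 2, ARB replicate 3 and ARNI replicate 2, Gja4 stood at -0.15 in ARB against SHR, Gja3 at -0.28 in ARNI against SHR, and Gja1 at -0.078, Gja3 at -0.26 and Gja4 at 0.014 in ARNI against ARB.

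Leaving out 1 library at a time, the ranges of log2 fold changes that crossed 0 were, in SHR against WKY, -0.16 to 0.16 for Gja4 and -0.49 to 0.32 for Gja5; in ARB against SHR, -0.21 to 0.105 for Gja3, -0.28 to 0.31 for Gja4 and -0.00011 to 0.26 for Gjc1; in ARNI against SHR, -0.40 to 0.19 for Gja3, -0.26 to 0.15 for Gja4 and -0.18 to 0.69 for Gja5; and in ARNI against ARB, -0.18 to 0.18 for Gja1, -0.38 to 0.22 for Gja3 and -0.38 to 0.21 for Gja4. In ARB against SHR, Gja5 ranged from 0.34 to 1.16.

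In SHR against WKY the same-numbered libraries had correlations of 0.026, -0.047 and -0.075, and 2 of 6 correlated best with their own number; the block lowered the calls over all genes from 1226 to 681, and it changed no call of a connexin other than that of Gjc1. On TMM-scaled library sizes the order of some group means changed. WKY then stood above SHR for Gja5, at 15.7 and 15.4 CPM, and for Gja4, at 9.04 and 8.83 CPM. The ARNI mean of Gja3, 61.9 CPM, stood above those of SHR and ARB, 61.4 and 60.8 CPM. For Gja1, WKY at 782 CPM stood above ARB at 740 CPM and next below SHR at 847 CPM. By Spearman correlation, 3 of the 5 genes most like Gja1, 3 for Gja3, 1 for Gja4, 2 for Gja5 and 0 for Gjc1 were again among the first 5. Depth was least for Gja4, with 82 reads in its lowest library.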

Other observations

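Shox2, a transcription factor of the sinus node and pulmonary vein muscle that was singled out after its values were seen, varied within groups in the libraries where Gja5 also varied. Its level was 0.426 to 0.522 CPM in WKY, 1.4, 19.3 and 2.85 CPM in SHR replicates 1 to 3, 10.5, 29.4 and 1.90 CPM in ARB and 8.34, 0.629 and 87.4 CPM in ARNI. The highest library of Shox2 in the SHR, ARB and ARNI groups was also the highest of Gja5 in that group, at 23.7, 36.6 and 27.8 CPM. The other SHR libraries ran the opposite way, with Gja5 at 15.8 and 7.79 CPM in replicates 1 and 3. Over the 12 libraries, Pearson's r of log2 CPM was 0.670 and Spearman's rho was 0.643, given as a description of libraries that share preparation and fall into sets with and without atrial markers. The highest libraries in ARB and ARNI were also those highest in adipocyte markers, and ARNI replicate 3 had the highest level of Myh11, a smooth muscle gene, at 154 CPM against 20.9 to 90.6 CPM in the other libraries. No test was made of this pattern.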
